A study of Mus musculus with 4 samples.

Results

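The 40 genes described here are a selection of those for parts of the extracellular matrix other than collagens and laminins. Also among the 40 are enzymes and chaperones that crosslink, modify and process collagen. The selection is defined by a list of gene symbols, and all 40 were found among the 27597 genes listed in at least 1 of the deposited tables. By role they comprise 7 glycoproteins of the interstitial matrix, 13 genes of elastic fibres and microfibrils, 5 small leucine-rich proteoglycans, 4 large proteoglycans or basement membrane genes, 5 lysyl oxidases and 6 genes of collagen modification, folding and processing.

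The matrix of connective tissue is built by fibroblasts as a meshwork of collagen fibrils, elastic fibres and glycoproteins such as fibronectin. Collagen chains are hydroxylated and folded in the endoplasmic reticulum, trimmed outside the cell and then joined by covalent crosslinks that lysyl oxidases start on lysine side chains. Small leucine-rich proteoglycans coat the fibrils and regulate their diameter, while latent TGF-beta binding proteins and fibrillins hold growth factors in the matrix. Loss of the mesenchymal programme is a known early step when fibroblasts are reprogrammed towards pluripotency.

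The cells were mouse embryonic fibroblasts of strain OGXICR at D13.5, prepared from skin freed of its epidermis and grown with serum, and their RNA was sequenced. All cells carried a doxycycline-inducible lentiviral system: OSKM cells received OCT4, SOX2, KLF4 and c-MYC, G3SKM cells received GATA3, SOX2, KLF4 and c-MYC, SKM cells received SOX2, KLF4 and c-MYC, and the remaining cells received an empty vector. Each of the 4 groups has 1 value per gene, which per the labels stands for 2 replicates combined, so no difference can be set against a spread between replicates and no test was possible. Library depth, worked out from the steps between low values, came to 74.7 M reads (mega-reads) in OSKM, 101.5 M in G3SKM, 54.0 M in SKM and 111.1 M in empty vector.

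Levels are given as RPKM rescaled to exon length (reads per kilobase of exon, scaled to library depth), because the deposited RPKM divide by the whole gene span with its introns and cannot be compared between genes. Genes are called by a rule of size that asks for an absolute log2 ratio of deposited RPKM + 1 of at least 1, after a filter that keeps genes reaching 1 RPKM in either group. Since several of the 40 genes have long introns and low deposited values, calls are also given on the plain fold, the ratio of RPKM without a pseudocount, at 2-fold or more among genes with 100 reads or more in either group, which covers all 40. Brackets after a fold hold its 95% Clopper-Pearson interval on recovered reads. Only counting error enters these intervals, and they are too narrow, because amplified reads are not independent molecules.

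Of the delivered factors, Sox2 stood at 110.5 in OSKM, 70.7 in G3SKM, 186.8 in SKM and 0.260 in empty vector. Pou5f1, the gene of OCT4, stood at 7.81 in OSKM, 0.448 in G3SKM and 0.628 in SKM and was listed at 0 in empty vector, and Gata3 stood at 0.693 in OSKM, 4.73 in G3SKM, 0.367 in SKM and 0.529 in empty vector. Both followed the labels. Klf4 was above empty vector in each culture that received it, at 24.3 in OSKM, 14.9 in G3SKM and 33.7 in SKM, against 10.9 in empty vector. Myc was not, at 19.3 in OSKM, 11.6 in G3SKM and 21.9 in SKM, against 29.3 in empty vector. The 9 fibroblast markers were all present in every group, and their levels summed to 889.4 in OSKM, 902.1 in G3SKM, 1591 in SKM and 2087 in empty vector. Col1a1 was the largest part of each sum, at 367.7 in OSKM, 426.1 in G3SKM, 902.8 in SKM and 850.6 in empty vector. In SKM it was the only 1 of the 9 above empty vector, and the other 8 were below it. The sum over 7 keratinocyte markers was 46.7 in OSKM, 64.2 in G3SKM, 90.7 in SKM and 0.225 in empty vector, where Krt15 and Dsg3 were at 0. In the cells with factors most of it came from Krt14, a keratin of the basal epidermis, which stood at 41.1 in OSKM, 56.9 in G3SKM and 84.3 in SKM. The sum over 8 macrophage markers was 4.91 in OSKM, 9.79 in G3SKM, 12.2 in SKM and 104.2 in empty vector. Over 5 smooth muscle and pericyte markers it was 23.6 in OSKM, 30.6 in G3SKM, 36.0 in SKM and 98.8 in empty vector. In bulk samples fewer fibroblasts and less RNA per fibroblast cannot be told apart, and the part of these markers in the results below was not tested.

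The matrix and crosslinking genes were lower as a group in all 3 cultures that received factors. Their summed level was 1686 in OSKM, 1736 in G3SKM and 2353 in SKM, against 5321 in empty vector, which is 31.7% of the empty vector sum in OSKM, 32.6% in G3SKM and 44.2% in SKM. Against empty vector the plain fold was below 1 for 35 of the 40 genes in OSKM, 37 in G3SKM and 32 in SKM. Over all genes with 100 reads or more, the median log2 plain fold was 0.285 in OSKM, 0.254 in G3SKM and 0.142 in SKM. The abundant members carried the sum: Thbs1, Sparc, Serpinh1, Lox, Bgn, Fn1, Fbln2 and Tnc held the top 8 places in both OSKM and empty vector, with 72.5% of the members' sum in OSKM and 81.0% in empty vector.

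In OSKM against empty vector, 13 of the 35 members past the filter were called lower, against 4.16% of the 10212 genes past it. No member was called higher, against 4.82% of those genes. The members' median log2 ratio was -0.77, beside 0.18 over all genes compared. In G3SKM against empty vector, 15 of 32 members were called lower, against 3.75% of 10298 genes, and none was called higher, against 7.11%. There the members' median was -0.93, beside 0.17 over all genes. In SKM against empty vector, 9 of 32 members were called lower, against 5.98% of 10195 genes, and none was called higher, against 8.88%. The members' median was -0.55 in that comparison, beside 0.15 over all genes. The 3 comparisons share the empty vector library, so they are not independent of each other.

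On the plain fold, 20 of the 40 genes were at least 2-fold lower in OSKM than in empty vector, against 7.92% of 16006 genes, and 2 were at least 2-fold higher, against 17.0%. In G3SKM 21 were lower, against 7.78% of 16363 genes, and 1 was higher, against 19.3%. In SKM 13 were lower, against 12.1% of 15705 genes, and none was higher, against 17.8%. The members' median log2 fold was -1.03 in OSKM, -1.05 in G3SKM and -0.74 in SKM. With these libraries, the members' share of genes at least 2-fold lower was well above that of all genes in OSKM and G3SKM, and nearer to it, though still above it, in SKM. With the trend of folds with GC removed (described below), 18 members were lower in SKM, against 9.63% of all genes. The same removal left 21 lower in OSKM, against 7.87%, and 21 in G3SKM, against 7.76%.

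**Figure D1:**
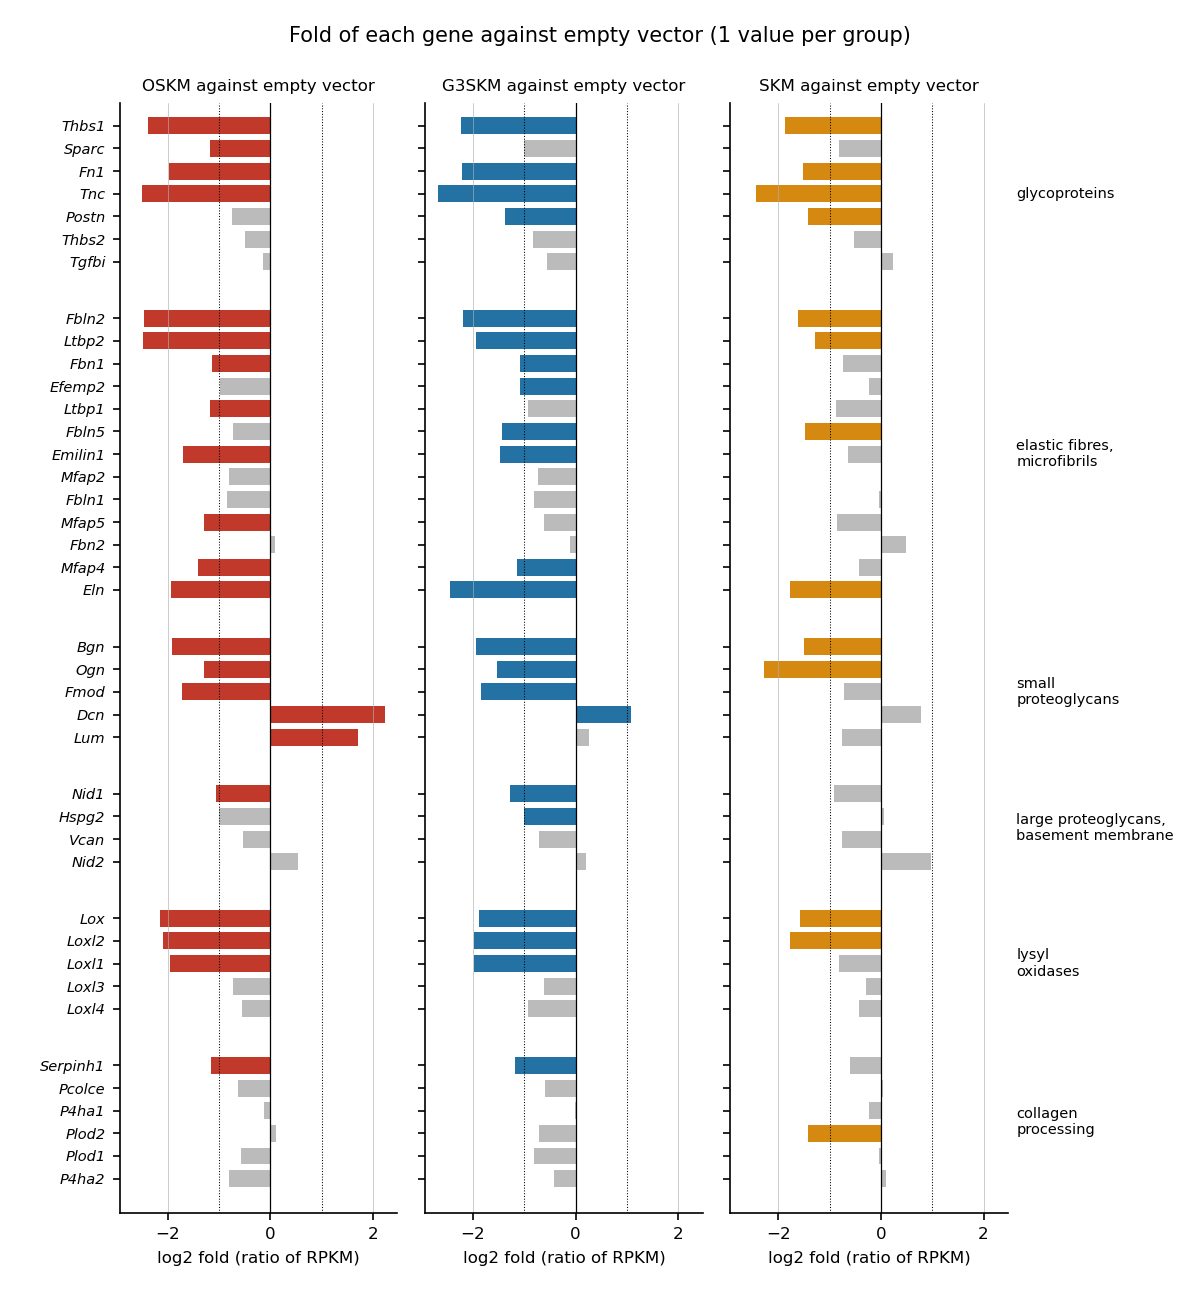
The bars give the log2 plain fold (ratio of RPKM) of each of the 40 genes in OSKM, G3SKM and SKM against empty vector, 1 value per group, grouped by role. Coloured bars pass the dotted lines at a log2 fold of 1 in either direction, and grey bars do not. Most coloured bars point left, and the exceptions are Dcn and Lum in OSKM and Dcn in G3SKM.

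**Figure D2:**
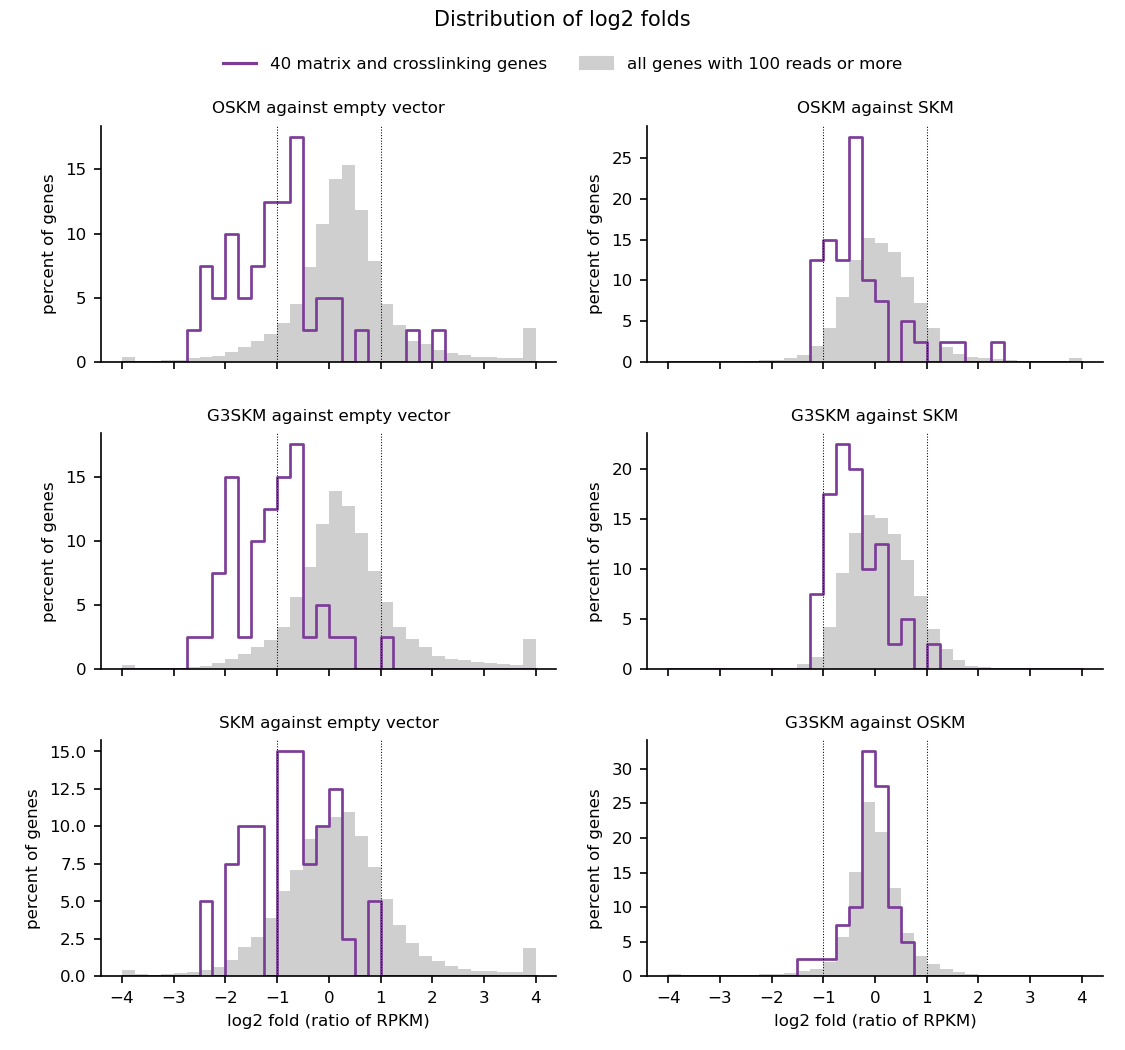
The histograms give the log2 plain fold in each of the 6 comparisons as a percentage of the 40 members and of all genes with 100 reads or more, with values beyond 4 in size placed in the end bins. The members' distribution lies to the left of that of all genes in the 3 comparisons with empty vector, with a median of -1.03 in OSKM, -1.05 in G3SKM and -0.74 in SKM.

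Promoter windows are shown for 4 members that were called lower in OSKM and G3SKM against empty vector, Tnc, Fbln2, Ltbp2 and Bgn, and for P4ha1, whose levels hardly differed. They are the 250 bases before the annotated start (RefSeq, GRCm38.p6, a later build than that of the values), at chr4:64047016-64047265 on the minus strand for Tnc (the first of 2 listed starts), chr6:91212514-91212763 on the plus strand for Fbln2, chr12:84876492-84876741 on the minus strand for Ltbp2, chrX:73483351-73483600 on the plus strand for Bgn and chr10:59323046-59323295 on the plus strand for P4ha1. Each is written 5′ to 3′ along its gene, and capitals mark matches to the motifs named after the sequences.
Tnc: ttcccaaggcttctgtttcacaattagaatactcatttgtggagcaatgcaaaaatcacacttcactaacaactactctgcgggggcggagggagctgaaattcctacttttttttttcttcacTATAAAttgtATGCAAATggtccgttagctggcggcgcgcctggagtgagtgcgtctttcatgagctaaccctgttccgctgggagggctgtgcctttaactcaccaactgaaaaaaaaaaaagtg
Fbln2: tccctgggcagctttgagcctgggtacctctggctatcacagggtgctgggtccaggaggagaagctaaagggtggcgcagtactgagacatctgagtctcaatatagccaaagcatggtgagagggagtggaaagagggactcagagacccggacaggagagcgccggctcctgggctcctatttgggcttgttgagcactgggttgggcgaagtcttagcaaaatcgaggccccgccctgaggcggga
Ltbp2: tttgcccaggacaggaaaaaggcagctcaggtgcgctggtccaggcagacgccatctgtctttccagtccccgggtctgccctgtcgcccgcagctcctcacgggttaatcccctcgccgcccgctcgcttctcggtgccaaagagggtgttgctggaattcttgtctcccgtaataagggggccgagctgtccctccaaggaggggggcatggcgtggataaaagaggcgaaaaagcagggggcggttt
Bgn: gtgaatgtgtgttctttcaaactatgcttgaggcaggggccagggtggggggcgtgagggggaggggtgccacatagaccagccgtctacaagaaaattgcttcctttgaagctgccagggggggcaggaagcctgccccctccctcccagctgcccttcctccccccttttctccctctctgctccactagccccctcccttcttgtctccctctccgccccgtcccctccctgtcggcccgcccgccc
P4ha1: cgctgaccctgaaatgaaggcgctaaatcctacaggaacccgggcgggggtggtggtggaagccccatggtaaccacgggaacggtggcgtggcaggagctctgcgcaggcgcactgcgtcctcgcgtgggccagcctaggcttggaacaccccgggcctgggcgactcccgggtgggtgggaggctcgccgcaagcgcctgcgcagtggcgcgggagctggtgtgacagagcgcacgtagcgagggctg

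Of the 40 genes, 26 had such a window. It was searched on both strands for TATAAA as the TATA box, and for short core motifs: TGACTCA for AP-1, CATTCC for TEAD, CCACACCC for KLF factors, ACAAAG for SOX factors, ATGCAAAT for OCT factors, AGATAA for factors of the GATA family and CACGTG for MYC. The Tnc window held the TATA motif beginning 126 bases before the start and the OCT motif beginning 116 bases before it, without overlap. The windows of Fbln2, Ltbp2, Bgn and P4ha1 held none of the 8 motifs. Over the 26 members, the TATA motif was in 4 windows (Ogn, Plod1, Thbs2 and Tnc), against 12.4% of all 32851 windows, and the OCT motif in 1, against 1.6%. TEAD was in 2 (Nid1 and Ogn), against 12.6%, SOX in 2 (Ltbp1 and Tgfbi), against 16.5%, KLF in 1 (Hspg2), against 3.2%, GATA in 1 (Fmod), against 9.99%, MYC in 1 (Fbln1), against 6.02%, and AP-1 in none, against 4.46%. The members' windows had a median GC content of 61.6%, beside 52.4% over all windows. These are matches of letters in short windows and say nothing about binding.

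Among the interstitial glycoproteins, which link cells to the matrix or modulate adhesion, the summed level was 27.9% of that in empty vector in OSKM, 29.3% in G3SKM and 36.1% in SKM. Tnc, encoding tenascin-C, a large adhesion-modulating protein of developing and healing tissue, stood at 56.8 in OSKM, 50.3 in G3SKM and 59.6 in SKM, against 323.3 in empty vector. It was 5.69-fold (5.62 to 5.75) lower in OSKM, 6.43-fold (6.36 to 6.50) lower in G3SKM and 5.43-fold (5.36 to 5.50) lower in SKM. The 3 cultures with factors lay close together, and empty vector stood apart. Exons of Tnc overlap those of the opposite-strand transcript 8030451A03Rik, by up to 104 bases in a pair of exons, and counting without strand cannot separate reads there. That transcript had 15460 recovered reads in OSKM, 17407 in G3SKM, 12890 in SKM and 131349 in empty vector. Tnc had 33008 in OSKM, 39662 in G3SKM, 25015 in SKM and 279245 in empty vector. How many reads fell in the shared stretch is not known.

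Thbs1, encoding thrombospondin-1, an adhesive glycoprotein that can activate latent TGF-beta, was the most abundant member in empty vector. Its level was 216.9 in OSKM, 243.1 in G3SKM and 312.3 in SKM, against 1138 in empty vector. The fold was 5.25 lower (5.21 to 5.28) in OSKM, 4.68 lower (4.66 to 4.71) in G3SKM and 3.65 lower (3.62 to 3.67) in SKM. Fn1, encoding fibronectin, on whose fibrils other matrix proteins assemble, stood at 85.2 in OSKM, 72.0 in G3SKM and 117.5 in SKM, against 336.3 in empty vector. It was 3.95-fold lower (3.92 to 3.98) in OSKM, 4.67-fold lower (4.64 to 4.71) in G3SKM and 2.86-fold lower (2.84 to 2.88) in SKM. For both genes all 3 cultures with factors were called lower, and SKM stood nearest to empty vector.

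Sparc, encoding a collagen-binding calcium protein also called osteonectin, kept high levels throughout, at 317.8 in OSKM, 360.4 in G3SKM and 406.8 in SKM, against 720.5 in empty vector. It was 2.27-fold lower (2.25 to 2.28) in OSKM and called lower there only, at 2.00-fold lower (1.99 to 2.01) in G3SKM and 1.77-fold lower (1.76 to 1.78) in SKM. In OSKM it was the most abundant of the 40. Postn, encoding periostin, which binds collagen and tenascin, stood at 18.8 in OSKM, 12.1 in G3SKM and 11.8 in SKM, against 31.5 in empty vector, and was called lower in G3SKM (2.61-fold, 2.55 to 2.67) and SKM (2.67-fold, 2.59 to 2.75). The SKM call was lost when the trend of folds with GC was removed, where its log2 plain fold was -0.67 in place of -1.42. The other 2 glycoproteins were under the rule of size against empty vector or under its filter. Thbs2, a thrombospondin related to Thbs1, stood at 21.4 in OSKM, 16.8 in G3SKM, 20.9 in SKM and 30.0 in empty vector. Tgfbi, a TGF-beta-induced adhesion protein, stood at 3.20 in OSKM, 2.39 in G3SKM, 4.18 in SKM and 3.54 in empty vector.

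**Figure D3:**
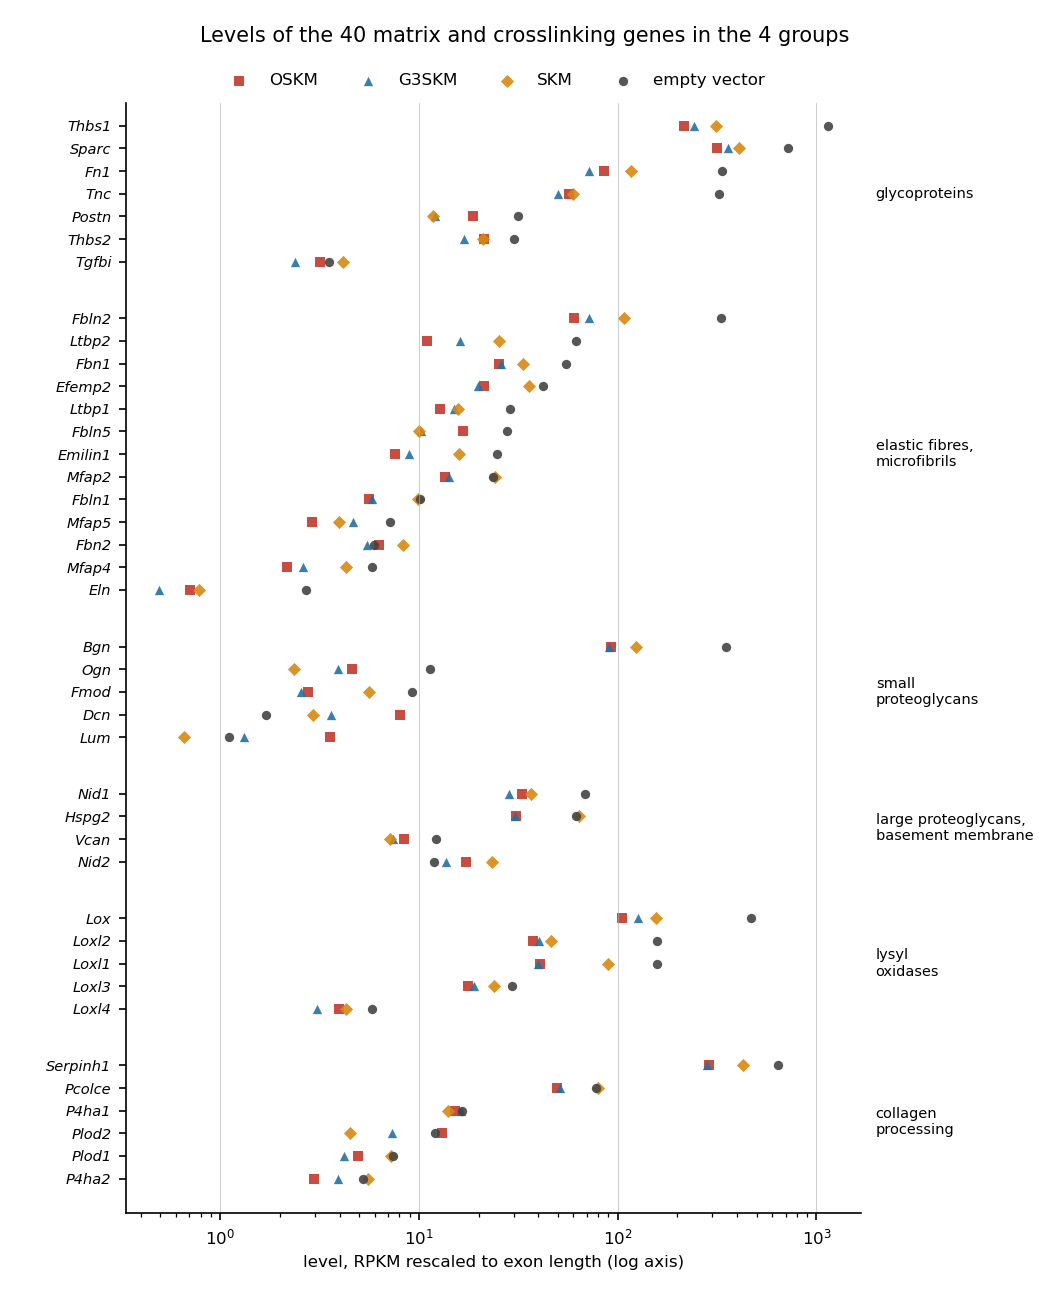
Each row is 1 of the 40 genes and each point its level in 1 group, as RPKM rescaled to exon length on a log axis, with 1 value per group. Empty vector lies at the right end of most rows, and rows where it does not include Dcn, Lum, Nid2 and Fbn2.

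Elastic fibres consist of an elastin core laid on fibrillin microfibrils, and their 13 genes had 29.7% of the empty vector sum in OSKM, 32.1% in G3SKM and 47.1% in SKM. Fbln2, encoding fibulin-2, a linker protein of elastic fibres and basement membranes, was the most abundant of them, at 60.1 in OSKM, 71.9 in G3SKM and 107.4 in SKM, against 330.6 in empty vector. It was 5.50-fold lower (5.43 to 5.57) in OSKM, 4.60-fold lower (4.55 to 4.64) in G3SKM and 3.08-fold lower (3.04 to 3.11) in SKM. Ltbp2, a fibrillin-binding protein of the latent TGF-beta binding protein family that, unlike the others, does not bind latent TGF-beta, stood at 11.0 in OSKM, 16.1 in G3SKM and 25.4 in SKM, against 61.6 in empty vector. It was 5.60-fold lower (5.46 to 5.74) in OSKM, 3.84-fold lower (3.76 to 3.91) in G3SKM and 2.43-fold lower (2.38 to 2.48) in SKM, and called in OSKM and G3SKM. Emilin1, an elastic fibre glycoprotein at the interface of elastin and microfibrils, stood at 7.63 in OSKM, 8.91 in G3SKM and 15.9 in SKM, against 24.7 in empty vector, and was called lower in OSKM (3.24-fold, 3.11 to 3.37) and G3SKM (2.77-fold, 2.68 to 2.87).

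Eln, the gene of elastin itself, was the lowest member in G3SKM, at 0.497, with 0.709 in OSKM, 0.788 in SKM and 2.70 in empty vector. It did not reach the filter on deposited RPKM, but on the plain fold it was 3.81-fold lower (3.44 to 4.24) in OSKM, 5.44-fold lower (4.89 to 6.05) in G3SKM and 3.43-fold lower (3.06 to 3.85) in SKM. Fbln5, encoding fibulin-5, needed for elastic fibre assembly, stood at 16.8 in OSKM, 10.3 in G3SKM and 9.98 in SKM, against 27.8 in empty vector. Its plain fold passed 2-fold in G3SKM (2.70-fold lower, 2.62 to 2.77) and SKM (2.79-fold lower, 2.69 to 2.89), and was 1.66-fold lower (1.62 to 1.70) in OSKM. Efemp2, or fibulin-4, which brings lysyl oxidase to elastin, stood at 21.3 in OSKM, 19.9 in G3SKM, 35.9 in SKM and 42.2 in empty vector. It was called lower in G3SKM alone (2.12-fold, 2.07 to 2.18), with a nearly equal fold in OSKM (1.98-fold lower, 1.93 to 2.04).

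The fibrillins differed from each other. Fbn1, the main microfibril subunit, stood at 25.3 in OSKM, 26.0 in G3SKM and 33.4 in SKM, against 55.4 in empty vector, and was 2.19-fold lower (2.16 to 2.22) in OSKM and 2.13-fold lower (2.10 to 2.16) in G3SKM. Fbn2, the fibrillin that predominates in the embryo, stood at 6.29 in OSKM, 5.49 in G3SKM, 8.38 in SKM and 5.94 in empty vector, with folds of 1.06 (1.02 to 1.09) in OSKM, 0.923 (0.895 to 0.953) in G3SKM and 1.41 (1.36 to 1.46) in SKM. Ltbp1, which tethers latent TGF-beta to microfibrils, stood at 12.8 in OSKM, 15.1 in G3SKM, 15.8 in SKM and 28.9 in empty vector, 2.26-fold lower (2.21 to 2.31) in OSKM and under 2-fold in G3SKM and SKM.

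The microfibril-associated genes were of low level. Mfap4 stood at 2.18 in OSKM, 2.63 in G3SKM, 4.30 in SKM and 5.80 in empty vector, and Mfap5 at 2.91 in OSKM, 4.65 in G3SKM, 3.96 in SKM and 7.14 in empty vector. Both were more than 2-fold lower in OSKM than in empty vector, and in G3SKM only Mfap4 was. Mfap2 was at 13.49 in OSKM and 14.2 in G3SKM and reached 24.2 in SKM and 23.7 in empty vector. Fbln1, a fibulin of elastic fibres and basement membranes, likewise had lower levels in both 4-factor cultures, with 5.64 in OSKM, 5.80 in G3SKM, 9.88 in SKM and 10.2 in empty vector, and the counting interval of both genes' fold in SKM against empty vector included 1. Their transcripts have 59.7% (Mfap2) and 54.7% (Fbln1) GC, and folds with SKM moved with GC over all genes (described below). Near 55% GC, as in Fbln1, the median log2 plain fold over all genes was 0.55 in SKM against empty vector. It was -0.29 in OSKM against SKM and -0.31 in G3SKM against SKM. Mfap2 lies between the bins near 59% and 61% GC, where the median was 0.70 and 0.79 in SKM against empty vector. In these bins it was -0.54 and -0.62 in OSKM against SKM, and -0.52 and -0.66 in G3SKM against SKM.

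The 5 small leucine-rich proteoglycans differed in direction, with a summed level at 29.9% of that in empty vector in OSKM, 27.4% in G3SKM and 36.2% in SKM. Bgn, encoding biglycan, made up most of the group's level and stood at 92.7 in OSKM, 90.9 in G3SKM and 123.7 in SKM, against 350.2 in empty vector. It was 3.78-fold lower (3.74 to 3.82) in OSKM, 3.85-fold lower (3.82 to 3.89) in G3SKM and 2.83-fold lower (2.80 to 2.86) in SKM. Fmod, encoding the fibril-binding fibromodulin, stood at 2.77 in OSKM, 2.55 in G3SKM and 5.60 in SKM, against 9.21 in empty vector, and was called lower in OSKM (3.32-fold, 3.06 to 3.61) and G3SKM (3.61-fold, 3.35 to 3.90). Ogn, encoding osteoglycin (mimecan), stood at 4.64 in OSKM, 3.93 in G3SKM and 2.36 in SKM, against 11.4 in empty vector. It was called lower in SKM (4.83-fold, 4.31 to 5.42), a call lost by the rule of size after GC removal (log2 ratio -0.43) and kept on the plain fold (-1.53). Its plain fold was 2.46 lower (2.28 to 2.65) in OSKM and 2.91 lower (2.71 to 3.12) in G3SKM.

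Dcn and Lum ran against this pattern, at low levels. Dcn, encoding decorin, a collagen-fibril coating that binds TGF-beta, stood at 8.02 in OSKM, 3.62 in G3SKM and 2.94 in SKM, against 1.71 in empty vector. Its plain fold was 4.69 (4.39 to 5.03) in OSKM, 2.12 (1.97 to 2.28) in G3SKM and 1.72 (1.58 to 1.88) in SKM. Lum, encoding lumican, another regulator of fibril diameter, stood at 3.60 in OSKM, 1.33 in G3SKM and 0.660 in SKM, against 1.11 in empty vector. Its fold against empty vector was 3.24 (2.82 to 3.73) in OSKM, 1.19 (1.02 to 1.40) in G3SKM and 0.595 (0.461 to 0.754) in SKM. Both genes were highest in OSKM. Neither was called by the rule of size, since their deposited values per gene span stay near or below 1 RPKM, and Lum rested on only 87 recovered reads in SKM, the fewest of any member in any group.

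The 4 genes of large proteoglycans and basement membranes kept more of their level, at 58.0% of the empty vector sum in OSKM, 51.7% in G3SKM and 85.0% in SKM. Hspg2, encoding perlecan, the heparan sulfate proteoglycan of basement membranes, stood at 30.9 in OSKM and 30.6 in G3SKM, against 61.8 in empty vector, while SKM was at 64.3. The Hspg2 transcript has 60.9% GC, and folds with SKM moved with GC over all genes (described below). Near 61% GC, the median log2 plain fold over all genes was 0.79 in SKM against empty vector. It was -0.62 in OSKM against SKM and -0.66 in G3SKM against SKM. Nid1, encoding nidogen-1, which ties laminin to type IV collagen, stood at 33.2 in OSKM, 28.3 in G3SKM and 36.7 in SKM, against 68.9 in empty vector, and was called lower in G3SKM (2.43-fold, 2.39 to 2.47). Its relative Nid2 was higher in all 3 cultures with factors, at 17.3 in OSKM, 13.7 in G3SKM and 23.4 in SKM, against 11.9 in empty vector, without reaching 2-fold (1.45, 1.40 to 1.50, in OSKM, 1.15, 1.11 to 1.19, in G3SKM and 1.96, 1.90 to 2.03, in SKM). Exons of Nid2 overlap those of Rtraf on the opposite strand, by up to 437 bases in a pair of exons. Vcan, encoding versican, a hyaluronan-binding proteoglycan of loose matrix, stood at 8.42 in OSKM, 7.44 in G3SKM, 7.19 in SKM and 12.2 in empty vector.

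The lysyl oxidases had the smallest share of the empty vector sum in OSKM among the 6 roles, at 25.1%, with 27.9% in G3SKM and 39.0% in SKM. Lox itself, the founding enzyme, stood at 105.4 in OSKM, 126.1 in G3SKM and 156.2 in SKM, against 467.8 in empty vector. It was 4.44-fold lower (4.39 to 4.49) in OSKM, 3.71-fold lower (3.68 to 3.74) in G3SKM and 3.0-fold lower (2.96 to 3.03) in SKM. Loxl2, which also crosslinks type IV collagen in basement membranes, stood at 37.4 in OSKM, 40.3 in G3SKM and 46.2 in SKM, against 158.6 in empty vector, and was 4.25-fold lower (4.17 to 4.32) in OSKM, 3.93-fold lower (3.88 to 3.99) in G3SKM and 3.43-fold lower (3.37 to 3.49) in SKM. Lox and Loxl2 were called lower in all 3 cultures with factors.

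Loxl1, a family member that acts on elastin, stood at 40.9 in OSKM and 39.9 in G3SKM, with 89.2 in SKM and 157.6 in empty vector. It was 3.86-fold lower (3.78 to 3.94) than empty vector in OSKM and 3.95-fold lower (3.88 to 4.03) in G3SKM, and 1.77-fold lower (1.74 to 1.80) in SKM, which was under the rule. Its transcript has 61.0% GC, and with the trend of folds with GC removed (described below) its log2 plain fold against SKM was -0.41 in OSKM and -0.43 in G3SKM, both under 2-fold, and -1.47 in SKM against empty vector. Loxl3 stood at 17.8 in OSKM, 19.0 in G3SKM, 23.8 in SKM and 29.3 in empty vector, and Loxl4 at 3.98 in OSKM, 3.07 in G3SKM, 4.31 in SKM and 5.82 in empty vector. These 2 less abundant enzymes were under the rule in each comparison with empty vector.

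The collagen modification, folding and processing genes retained 48.9% of the empty vector sum in OSKM, 48.0% in G3SKM and 70.5% in SKM. Serpinh1, encoding HSP47, the collagen-specific chaperone of the endoplasmic reticulum, was the main part of that sum, at 287.2 in OSKM, 283.3 in G3SKM and 426.3 in SKM, against 644.4 in empty vector. It was 2.24-fold lower (2.22 to 2.27) in OSKM and 2.27-fold lower (2.25 to 2.29) in G3SKM, both called, and 1.51-fold lower (1.50 to 1.53) in SKM. It was the only one of the 6 past the rule against empty vector.

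The hydroxylases and the protease enhancer showed smaller differences. P4ha1, a catalytic subunit of prolyl 4-hydroxylase, varied least, at 15.2 in OSKM, 16.4 in G3SKM, 14.1 in SKM and 16.5 in empty vector, and the interval of its fold in G3SKM against empty vector, 0.992 (0.960 to 1.03), included 1. P4ha2, the second such subunit, stood at 2.99 in OSKM, 3.93 in G3SKM, 5.59 in SKM and 5.25 in empty vector. Plod1, a lysyl hydroxylase, stood at 4.98 in OSKM, 4.20 in G3SKM, 7.27 in SKM and 7.42 in empty vector. Pcolce, an enhancer of procollagen C-proteinase, stood at 49.7 in OSKM, 51.2 in G3SKM, 80.0 in SKM and 77.5 in empty vector. In P4ha2, Plod1 and Pcolce the SKM level was close to that of empty vector and both 4-factor cultures were lower. Their transcripts have 52.1% to 54.8% GC, and folds with SKM moved with GC over all genes (described below). With that trend removed, the median log2 plain fold of this role went from -0.13 to -0.33 in SKM against empty vector. In OSKM against SKM it went from -0.56 to -0.25, and in G3SKM against SKM from -0.55 to -0.22.

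Plod2, the lysyl hydroxylase of collagen telopeptides, had another order. It stood at 13.1 in OSKM, 7.38 in G3SKM and 4.53 in SKM, against 12.1 in empty vector, so that only OSKM matched empty vector. Its plain fold was 1.08 (1.05 to 1.12) in OSKM, 0.609 (0.586 to 0.633) in G3SKM and 0.374 (0.352 to 0.397) in SKM. Postn, Fbln5, Ogn and Vcan were likewise lower in SKM than in OSKM, and these transcripts are of low to moderate GC content (36.3% in Postn to 46.9% in Fbln5).

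The comparisons with SKM concern cultures that received OCT4 or GATA3 beside the same 3 factors. The shared factors were not at equal levels: Sox2, Klf4 and Myc were each lower in OSKM and G3SKM than in SKM (values above), and Sox2 and Klf4 were called lower in G3SKM against SKM. The added factor and the lower levels of the shared ones cannot be told apart. Folds with SKM also moved with GC over all genes (described below). The part of that trend in the differences of the shared factors was not tested. In OSKM against SKM none of 32 members past the filter was called higher, against 2.55% of 10211 genes, and none lower, against 1.64%. The members' median log2 ratio was -0.38, beside -0.005 over all genes. On the plain fold 3 of 40 were at least 2-fold higher, against 10.0% of 15626 genes, and 5 were at least 2-fold lower, against 4.38%. The higher ones were Lum at 5.45-fold (4.37 to 6.92), Plod2 at 2.90-fold (2.73 to 3.08) and Dcn at 2.72-fold (2.53 to 2.93). The lower ones were Ltbp2 at 0.433-fold, Loxl1 at 0.458-fold, Emilin1 at 0.479-fold, Hspg2 at 0.480-fold and Fmod at 0.495-fold. The share of members at least 2-fold higher was below that of all genes, and the share at least 2-fold lower was above it.

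In G3SKM against SKM, 1 of 28 members was called lower, against 1.1% of 10214 genes, and none higher, against 4.43%. The called gene was Loxl1, at 39.9 in G3SKM against 89.2 in SKM, a plain fold of 0.447. The members' median log2 ratio was -0.43, beside -0.004 over all genes. On the plain fold 1 of 40 was at least 2-fold higher (Lum, 2.01-fold, 1.58 to 2.58), against 8.07% of 16080 genes, and 3 were at least 2-fold lower (Loxl1, Fmod at 0.455-fold and Hspg2 at 0.476-fold), against 2.06%.

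Folds against SKM moved with transcript GC content across all genes. Spearman's rho between GC and log2 plain fold was -0.681 over 15626 genes in OSKM against SKM and -0.693 over 16080 genes in G3SKM against SKM, and over the 40 members it was -0.75 in OSKM against SKM and -0.84 in G3SKM against SKM. Both comparisons share the SKM library. It was 0.444 over all genes in SKM against empty vector, but 0.004 in OSKM against empty vector, 0.020 in G3SKM against empty vector and 0.043 in G3SKM against OSKM. Over the members these 4 values were 0.27 in SKM against empty vector, -0.30 in OSKM against empty vector, -0.22 in G3SKM against empty vector and 0.29 in G3SKM against OSKM. These are correlations across genes that share the same libraries. The 7 members under 45% GC are Ogn, Postn, Dcn, Lum, Plod2, Vcan and Lox, a limit chosen after the values were seen. Of these, 6 were above 0 in OSKM against SKM, with a median log2 fold of 0.97, and 3 of the other 33 were, with a median of -0.45. In G3SKM against SKM, 6 of these 7 were above 0, with a median of 0.30, and 3 of the other 33, with a median of -0.59.

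With the trend over all genes subtracted in 20 bins of GC, Lum (log2 fold 1.88) and Plod2 (1.06) still passed 2-fold higher in OSKM against SKM, 2 of 40 against 5.78% of all genes. Dcn did not (0.70). Lox, at a log2 fold of -1.04, was then the only member past 2-fold lower, against 2.53% of all genes. In G3SKM against SKM no member passed in either direction, against 3.82% of all genes higher and 1.23% lower, and the median log2 fold of the members was -0.29, beside -0.19 in OSKM against SKM. In SKM against empty vector the same subtraction left 18 members at least 2-fold lower, against 9.63% of all genes, and 1, Dcn, higher, against 15.1%. Sparc, Loxl1, Emilin1, Ltbp1, Fmod, Nid1 and Serpinh1 were then among the lower ones, while Postn and Plod2 were not. After it 21 members were lower in OSKM against empty vector, against 7.87% of all genes, and 2 higher, against 17.1%. In G3SKM against empty vector 21 were lower, against 7.76%, and 1 was higher, against 19.2%.

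**Figure D4:**
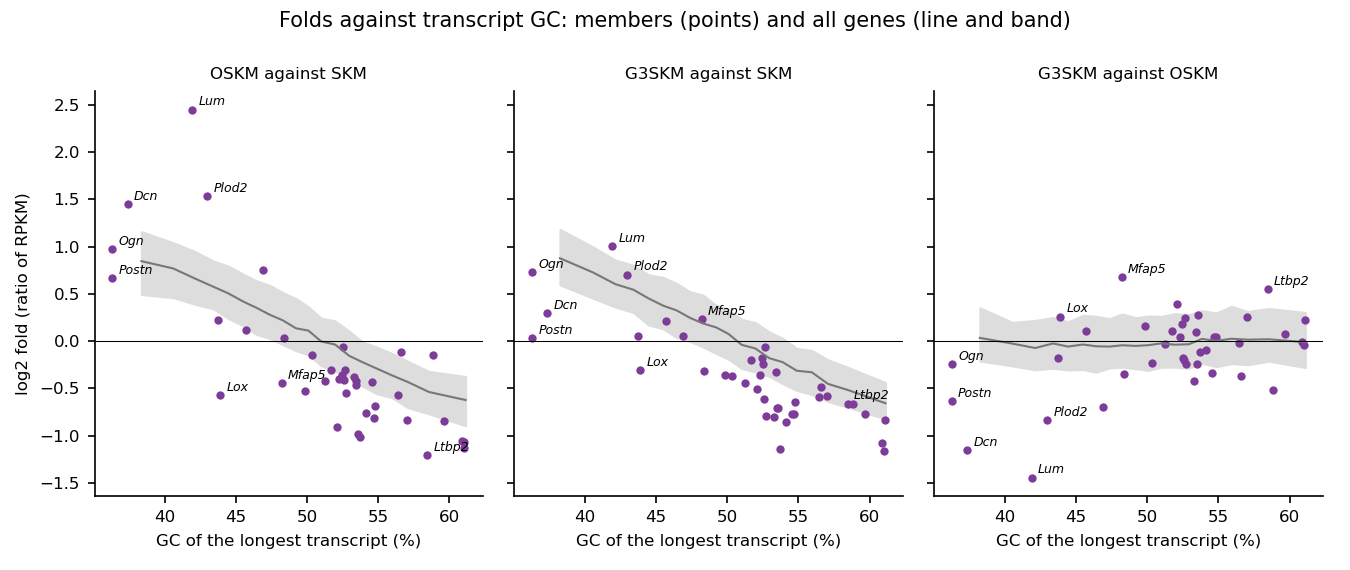
Points give the log2 plain fold of the 40 members against the GC content of their transcripts, the line is the median over all genes in bins of GC and the band its quartiles. In both comparisons with SKM the members descend along the line of all genes (rho of -0.75 in OSKM and -0.84 in G3SKM), and in G3SKM against OSKM the line is flat.

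Set directly against each other, the 4-factor cultures were close. In G3SKM against OSKM none of 30 members was called higher, against 2.25% of 10222 genes, and none lower, against 0.724%. The members' median log2 ratio was -0.02, beside -0.01 over all genes. Of the 40 plain folds 23 were below 1, with a median log2 fold of -0.031, beside -0.023 over all genes. On the plain fold no member was at least 2-fold higher, against 4.68% of 16318 genes, and 2 were at least 2-fold lower, against 4.35%. These were Lum, at 1.33 in G3SKM against 3.60 in OSKM (0.368-fold, 0.321 to 0.421), and Dcn, at 3.62 in G3SKM against 8.02 in OSKM (0.451-fold). With the GC trend removed the same 2 genes passed, against 4.32% of all genes, and none was higher, against 4.71%. Plod2 was at 0.561-fold, Fbln5 at 0.616-fold and Postn at 0.642-fold. In the other direction Mfap5 was at 1.60-fold (1.47 to 1.74) and Ltbp2 at 1.46-fold in G3SKM against OSKM.

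Other matrix genes were also compared with empty vector. Of 40 further structural matrix genes, 30 had reads enough for the plain fold in OSKM against empty vector, where 11 were at least 2-fold lower, against 7.92% of all genes, and 10 at least 2-fold higher, against 17.0%. In G3SKM 10 of 28 were lower, against 7.78%, and 5 higher, against 19.3%. In SKM 4 of 28 were lower, against 12.1%, and 7 higher, against 17.8%, so the lower count in SKM and the higher count in G3SKM lay near the shares of all genes. By the rule of size 4 of 10 past the filter were called lower in OSKM, against 4.16% of all genes, and 1 higher, against 4.82%. In G3SKM 3 of 9 were called lower, against 3.75%. Igfbp7, a matrix-bound growth-factor-binding protein, stood at 105.6 in OSKM, 109.6 in G3SKM and 188.5 in SKM, against 364.4 in empty vector. Has2, which makes hyaluronan, stood at 3.58 in OSKM, 5.50 in G3SKM and 2.22 in SKM, against 29.8 in empty vector. In SKM against empty vector 1 of 9 was called lower (Has2), against 5.98% of all genes, and 1 higher (Prelp), against 8.88%. Prelp, a small leucine-rich proteoglycan of basement membranes, stood at 17.8 in OSKM, 12.3 in G3SKM and 23.1 in SKM, against 6.67 in empty vector. It was also the 1 called higher in OSKM. Of 25 listed further genes of collagen modification and processing, 23 could be compared on the plain fold. In OSKM 8 were at least 2-fold lower, against 7.92% of all genes, and 2 higher, against 17.0%. In G3SKM 5 were lower, against 7.78%, and 2 higher, against 19.3%. In SKM 2 were lower, against 12.1%, and 2 higher, against 17.8%. Pcolce2, a second enhancer of procollagen C-proteinase, was called higher in all 3, at 20.5 in OSKM, 22.9 in G3SKM and 23.7 in SKM, against 3.54 in empty vector. Fkbp10, a prolyl isomerase for collagen, was called lower in G3SKM, at 43.3 against 97.5 in empty vector. Its level was 48.9 in OSKM and 69.7 in SKM, both under the rule.

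TGF-beta signalling is a growth-factor pathway known to drive matrix genes in fibroblasts. Of 8 genes of its list past the filter, 5 were called lower in OSKM, against 4.16% of all genes, 6 in G3SKM, against 3.75%, and 5 in SKM, against 5.98%. On the plain fold 8 of 15 were at least 2-fold lower in OSKM, against 7.92% of all genes, and 9 of 16 in G3SKM, against 7.78%. In SKM 8 of 15 were at least 2-fold lower, against 12.1%. At least 2-fold higher in G3SKM were 2 of 16, against 19.3%. Those 2, the integrins Itgb6 and Itgb8, had low levels, at 0.291 and 0.469 in G3SKM against 0.0240 and 0.203 in empty vector. Smad4, a signal transducer of the pathway, stood at 24.2 in OSKM, 20.2 in G3SKM and 18.6 in SKM, against 17.5 in empty vector. Ccn2, a matricellular target of the pathway, stood at 102.2 in OSKM, 114.6 in G3SKM and 116.7 in SKM, against 937.7 in empty vector. Tgfb3, a ligand, stood at 18.3 in OSKM, 20.7 in G3SKM and 24.1 in SKM, against 70.6 in empty vector. Of the 9 fibroblast markers, 7 were called lower in OSKM, against 4.16% of all genes, and 6 in G3SKM, against 3.75%. In SKM 2 were called lower, against 5.98%. Col1a1, the main type I collagen chain, stood at 367.7 in OSKM and 426.1 in G3SKM, with 902.8 in SKM and 850.6 in empty vector.

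Exons of 16 of the 40 genes overlap those of another annotated gene, 6 of them a protein-coding one (Efemp2, Fbn1, Loxl3, Mfap4, Nid2 and Pcolce). The library kit named in the labels does not mark strand, so reads in these stretches could come from either gene.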

How the data were processed

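The authors' deposited values are RPKM, per the file headers, in 3 tables with the authors' log2 ratio, at most 0.0017 away from that recomputed here. TopHat 1.3.0 and mm9 are named in the submitters' processing notes; the sources used here do not name the read counter. Amplified cDNA went through a DNA library kit, per the labels' protocols. The SKM column was identical in all 3 tables, so columns were also compared across tables. A value of 0.001 was read as 0. Symbols, exon lengths and transcript GC came from GENCODE M21, which covered 25103 listed genes (91.0%). RPKM times gene span fell within 0.05 of whole multiples of 1 read for 74.8% to 76.8% of genes with few reads, which gave depths and approximate reads.

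The 40 members and all lists were chosen with earlier results of these data known. With 1 value per group there is no test. Named genes were all members and, of other lists, up to 3 risen and 3 fallen past the rule, of which 1 is not reported here. Alternatives were pseudocounts of 0.1 and 5 RPKM, filters of 5 RPKM and none, median centring, exon length and removal of the GC trend in 20 bins; the plain fold at 100 reads, combinations with GC and protein-coding genes alone were added after the data were examined. The procedure was tested on simulated data. Python 3.11.15, pandas 2.3.3, numpy 2.4.6, SciPy 1.17.1 and matplotlib 3.10.9 were used.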

Additional observations from a re-analysis of the deposited data

How the results depend on the processing

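No paired analysis was possible because each group has 1 value. All 38 calls of single members kept their direction under every alternative that gave a value, and 25 of them stayed past the rule with a pseudocount of 5 RPKM, 35 after removal of the GC trend and 36 with exon length or the plain fold together with that removal. Median centring raised the members called lower against empty vector to 17 in OSKM, 18 in G3SKM and 11 in SKM, with none higher. Centring moved all genes too, with 5.99% of them lower in OSKM, 5.55% in G3SKM and 8.27% in SKM. The shares of all genes higher were then 2.88% in OSKM, 4.55% in G3SKM and 5.96% in SKM. The counts of members called lower or higher that moved by over 1.5 times were as follows. Shares over all genes on the plain fold, with and without GC removal, are given above. Against empty vector, OSKM had 20 lower and 2 higher with exon length or the plain fold, 21 lower and 2 higher when the GC trend was also removed, and 2 higher with a pseudocount of 0.1 RPKM. Over all genes, 4.93% were lower and 8.92% higher with exon length. With exon length and GC removal, 4.98% were lower and 8.74% higher, and the pseudocount of 0.1 RPKM gave 10.4% higher. G3SKM had 8 lower with a pseudocount of 5 RPKM, against 1.51% of all genes, and 1 higher on the plain fold, with or without GC removal. SKM had 16 lower and 1 higher with exon length and GC removal, against 5.64% of all genes lower and 8.28% higher. On the plain fold with GC removal it had 18 lower and 1 higher. Against SKM, OSKM had 3 higher and 4 lower with a pseudocount of 0.1 RPKM, 3 higher and 3 lower with exon length, 1 higher with exon length and GC removal, 3 higher and 5 lower on the plain fold, and 2 higher and 1 lower on the plain fold with GC removal. Over all genes, 6.16% were higher and 4.04% lower with that pseudocount. With exon length 4.0% were higher and 1.95% lower, and with exon length and GC removal 2.19% were higher. G3SKM against SKM had 3 lower with a pseudocount of 0.1 RPKM or on the plain fold (with 1 higher there), 2 lower with exon length, and 0 lower with a pseudocount of 5 RPKM or after GC removal on any scale. Of all genes, 2.52% were lower with a pseudocount of 0.1 RPKM, 1.04% with exon length and 0.421% with a pseudocount of 5 RPKM. After GC removal 0.603% were lower by the rule of size and 0.6% with exon length. G3SKM against OSKM had 2 lower with a pseudocount of 0.1 RPKM or on the plain fold with or without GC removal, and 1 lower with exon length and GC removal. The shares of all genes lower were 1.77% with that pseudocount and 1.55% with exon length and GC removal. Calls against SKM therefore depend on the scale and on GC, while the direction of the members' median against empty vector was negative under each alternative. Depth limits the members with few reads, Lum, Mfap4 and Ogn among them, and the intervals leave out variation between cultures.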
